A study of Mus musculus with 9 samples.

Results

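The 10 genes described here mark or maintain the fat cell precursor (preadipocyte) state: the PDGF receptors Pdgfra and Pdgfrb, the surface molecules Thy1, Ly6a and Cd34, the secreted regulator Dlk1, and the transcription factors Runx1, Runx2, Sox9 and Gata2. They were grouped from what is known of adipose precursors, but with earlier results of these data known. All 10 were found by symbol among the 28965 genes of the deposited table. RNA came from 3T3-L1, a wild-type mouse fibroblast line of committed adipocyte precursors. All 9 libraries came from cells held at confluence and then exposed for 24 h to insulin (0.1 µg/mL), the phosphodiesterase inhibitor isobutylmethylxanthine (30 µg/mL) and the glucocorticoid dexamethasone (0.1 µg/mL). There were 3 libraries in each of 3 groups: MDI, given albumin as vehicle, OA, given albumin loaded with 100 µM oleic acid, and OA_T0, given the loaded albumin together with T0901317 at 5 µM, a drug that activates the liver X receptors. No group lacked the cocktail and none received T0901317 without the acid, so these data do not show how the cocktail itself moved the genes. A single cell line without animal replicates limits the model, and since nothing states that the replicates were separate cultures, the p-values measure the spread between these libraries, which may be technical.

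Preadipocytes are fibroblast-like cells of the adipose stroma that can commit to the fat lineage. PDGFRα, the receptor for platelet-derived growth factors made mainly of A and C chains, is the standard surface marker of adipose precursors, while PDGFRβ is shared with mural cells around vessels. DLK1 (Pref-1) is shed from the cell surface and restrains adipogenesis, in part by maintaining SOX9, which represses the Cebpb and Cebpd promoters. GATA2 holds precursors undifferentiated, and RUNX1 and RUNX2 are best known from blood and bone formation and also counter fat cell differentiation. THY1, LY6A (SCA-1) and CD34 are anchored or transmembrane surface molecules used to sort stromal progenitors.

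Promoter sequence was examined because some members of this set moved in the same direction and 2 of its factors belong to 1 DNA-binding family. In the RefSeq promoter table (build GRCm38.p6, 250 bases before to 50 after each start), 6 of the 10 genes had entries that could be used here, with 8 promoters in all, since Runx1 and Gata2 have 2 each. Letters were searched on both strands: TGTGGT or TGCGGT for RUNX factors, AGATAA or TGATAA for GATA factors, ACAATG for SOX factors and AGGTCA for nuclear receptors. Of 32851 promoters of that length, 22.4% held the RUNX letters, 18.6% the GATA letters, 12.6% the SOX letters and 16.3% the nuclear receptor letters. The sequences below are those with matches near the start of Runx1, Runx2 and Dlk1, and that of Pdgfra, which held no match. Bases after the Pdgfra start were not found in a GENCODE M21 transcript of the gene, while those of the other promoters were found in theirs. Capitals mark the matches, and ACCACA is TGTGGT read from the other strand.
Runx1, bases 21 to 50 after the start, chr16:92826025-92826054, minus strand: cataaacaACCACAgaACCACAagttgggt
Runx2, bases 21 to 50 after the start, chr17:44814578-44814607, minus strand: acaACCACAgaACCACAagTGCGGTgcaaa
Runx2, the 250 bases before the start, chr17:44814628-44814877, minus strand: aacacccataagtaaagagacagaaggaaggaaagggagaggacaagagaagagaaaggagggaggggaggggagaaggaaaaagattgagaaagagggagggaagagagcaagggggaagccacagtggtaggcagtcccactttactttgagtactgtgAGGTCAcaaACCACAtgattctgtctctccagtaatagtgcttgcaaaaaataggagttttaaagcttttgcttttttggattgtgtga
Dlk1, the 250 bases before the start, chr12:109452573-109452822, plus strand: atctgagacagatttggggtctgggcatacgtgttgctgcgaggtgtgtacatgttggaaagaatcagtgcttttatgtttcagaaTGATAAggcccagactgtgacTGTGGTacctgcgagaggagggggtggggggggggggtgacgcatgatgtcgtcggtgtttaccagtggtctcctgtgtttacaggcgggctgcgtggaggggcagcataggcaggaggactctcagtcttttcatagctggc
Pdgfra, the 250 bases before the start, chr5:75152001-75152250, plus strand: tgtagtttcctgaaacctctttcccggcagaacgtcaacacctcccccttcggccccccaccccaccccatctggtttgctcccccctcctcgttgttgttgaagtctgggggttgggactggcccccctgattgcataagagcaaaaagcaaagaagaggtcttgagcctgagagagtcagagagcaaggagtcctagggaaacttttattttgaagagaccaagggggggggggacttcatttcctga

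In 1 of its 2 promoters, Runx1 held RUNX letters that began at bases 29 and 37 after the start. The Runx2 promoter held 4 such matches, at 80 bases before the start and at bases 24, 32 and 40 after it, and AGGTCA 89 bases before the start. At least 2 RUNX matches occurred in 2.86% of all promoters and at least 4 in 0.0639%. Runx1 and Runx2 shared a run of 22 bases around the matches after the start, and of the 32851 promoters these were the 2 that held it. Dlk1 held TGTGGT 143 and TGATAA 164 bases before the start. The letters searched were not found in the promoters of Pdgfra, Cd34 and Gata2 or in the other Runx1 promoter. A match describes letters and not a bound site, and the values below are sums over a gene, so promoters of 1 gene cannot be told apart in them.

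Values are deposited normalised counts, taken here as counts, not all of them whole, divided by 1 factor per library. Group values are means ± SD with n = 3, and differences come from limma on log2(value + 1) over the 15002 genes with a mean of at least 10, a filter that all 10 genes passed. A gene was called when its Benjamini-Hochberg adjusted p over those genes was below 0.05, and groups are said not to overlap when the 3 libraries of one group all lie beyond those of the other. Estimated depth ran from 18.0 to 59.9 M fragments per library (M, mega), and the floor of 3 fragments lay between 1.35 and 4.62 units, below every value of the 10 genes. The share of each total held by the largest gene, which encodes ribosomal RNA, was 4.40% to 5.96% in 7 libraries but 0.649% in OA replicate 1 and 3.06% in OA_T0 replicate 3. Without both of those libraries Pdgfra, Runx1, Runx2 and Sox9 kept their calls in the comparisons below, and Dlk1 did not.

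Oleic acid moved 4 of the 10 genes. Pdgfra was 1.39-fold higher in OA than in MDI, while Runx1 was 1.68-fold, Runx2 1.30-fold and Sox9 1.26-fold lower. Adding T0901317 to oleic acid moved 3 of these 4 the other way: Pdgfra was 1.56-fold lower in OA_T0 than in OA, Runx1 1.57-fold higher and Sox9 1.25-fold higher, and Dlk1 was 1.22-fold higher. Between OA_T0 and MDI none of the 10 was called. Both comparisons use the same OA libraries, once as the treated and once as the reference group, so opposite differences in them are not independent.

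**Figure D1:**
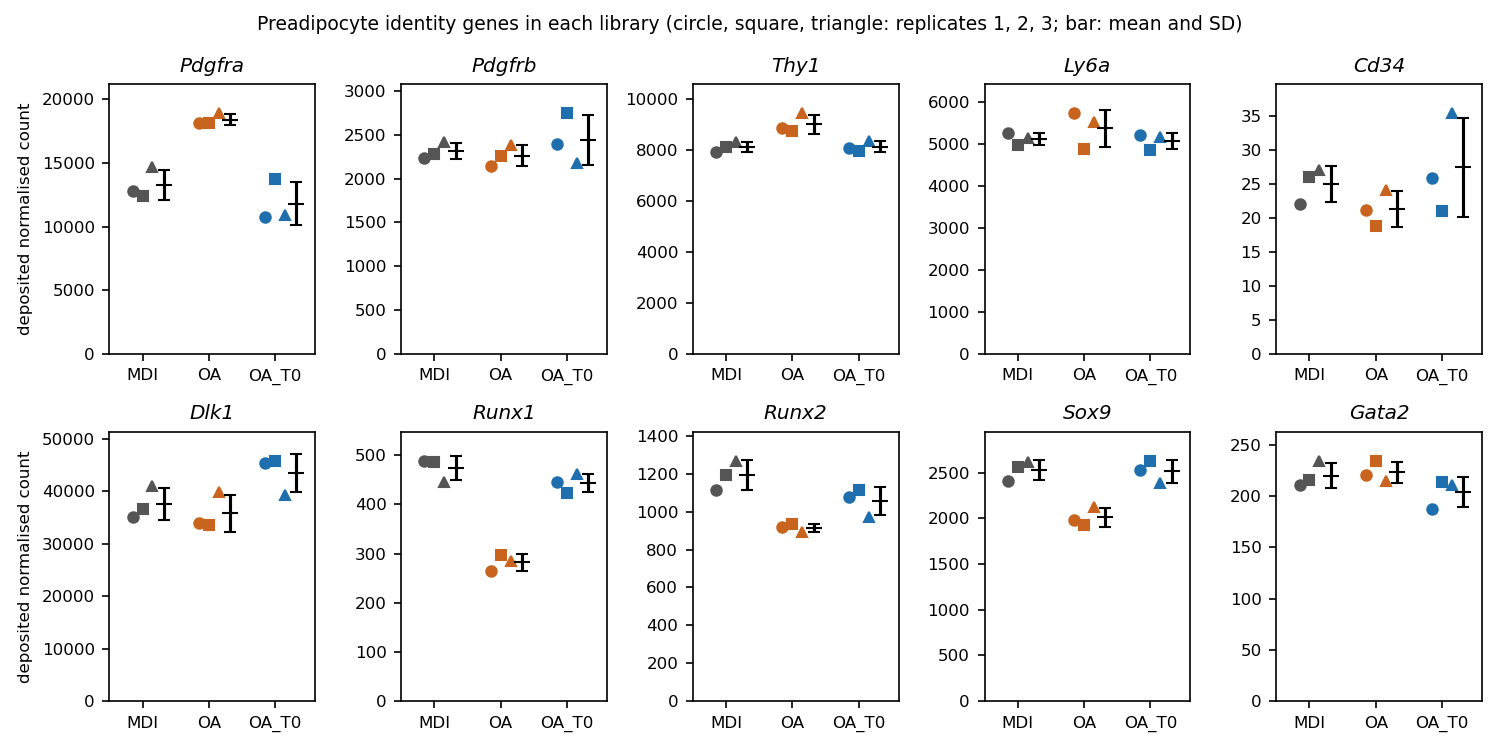
Deposited normalised counts of the 10 genes on the vertical axes, from 0 and with a scale for each gene, in the MDI, OA and OA_T0 groups on the horizontal axes. Points are libraries and bars are means ± SD with n = 3; all 3 OA libraries lie above the rest for Pdgfra and below the rest for Runx1, Runx2 and Sox9.

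Among all tested genes, 3.43% were called higher and 3.36% lower in OA vs MDI, and 26.1% had groups that did not overlap. Of the 10, 1 was called higher and 3 lower, and 5 had groups that did not overlap, with a median log2 fold change of -0.05 against 0.01 over all genes. Because the 10 were chosen with earlier results of these data known, their counts beside the shares over all genes are a description and no test. The shares over all genes in OA_T0 vs OA were 8.27% higher, 6.84% lower and 32.1% without overlap. There 3 of the 10 were called higher and 1 lower, 6 did not overlap, and the median was 0.15. In OA_T0 vs MDI, 1.25% of all genes were called higher, 1.36% lower and 23.5% did not overlap. None of the 10 was called by limma in that comparison. At an unadjusted p under 0.05 there were 2, Dlk1 higher and Runx2 lower. Runx2 alone did not overlap, by a narrow margin. The share of all genes at that unadjusted threshold was not counted. Counts at it, here and in the companion lists below, thus have no share to be set against.

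Pdgfra measured 12785, 12387 and 14657 in the MDI libraries, 18137, 18160.0 and 18906 in the OA libraries, and 10780.0, 13738 and 10929 in the OA_T0 libraries. All 3 OA libraries lay above the other 6, and OA_T0 replicate 2 lay among the MDI libraries. The means were 13276 ± 1212 in MDI, 18401 ± 437 in OA and 11816 ± 1667 in OA_T0. Pdgfra rose in OA vs MDI by a log2 fold change of 0.47 (SE 0.09, 95% interval 0.29 to 0.66, limma adjusted p = 0.00406). It fell in OA_T0 vs OA by 0.65 on the log2 scale (SE 0.09, adjusted p = 1.53e-04). In OA_T0 vs MDI the log2 difference was -0.17, with an interval from -0.36 to 0.01 (adjusted p = 0.302).

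Pdgfrb, the other receptor of the family, measured 2238, 2285 and 2416 in MDI, 2141, 2257 and 2383 in OA, and 2397, 2744 and 2176 in OA_T0. The 3 groups overlapped. The log2 difference was -0.03 for OA vs MDI (95% interval -0.20 to 0.13, limma adjusted p = 0.854) and 0.10 for OA_T0 vs OA (-0.06 to 0.27, adjusted p = 0.390). Within a library the ratio of Pdgfra to Pdgfrb needs no scaling between libraries. It was 5.71, 5.42 and 6.07 in MDI, 8.47, 8.05 and 7.93 in OA, and 4.50, 5.01 and 5.02 in OA_T0, so the 3 groups did not overlap in this ratio. The ratio itself was not tested.

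Among the surface markers, Thy1 measured 7933, 8105 and 8323 in MDI, 8853, 8767 and 9444 in OA, and 8095.0, 7959 and 8365 in OA_T0. The OA libraries lay above the other 6, but the difference from MDI, 0.15 on the log2 scale (95% interval 0.04 to 0.27), did not pass (limma adjusted p = 0.113), nor did that of OA_T0 from OA, -0.15 (adjusted p = 0.0787). Ly6a measured 5254, 4975 and 5144 in MDI, 5732, 4880.1 and 5523 in OA, and 5208, 4864 and 5168 in OA_T0. Its groups overlapped in every comparison, with log2 differences of 0.07 for OA vs MDI (adjusted p = 0.611) and -0.08 for OA_T0 vs OA (adjusted p = 0.432). Reads of Ly6a may be shared with close paralogs of its family, which these values cannot separate. Cd34 was low in all libraries, at 22.1, 26.1 and 27.0 in MDI, 21.3, 18.8 and 24.1 in OA, and 25.9, 21.1 and 35.4 in OA_T0. Its interval was wide, from -0.84 to 0.39 on the log2 scale in OA vs MDI and from -0.29 to 0.94 in OA_T0 vs OA, so differences of the size seen for Runx1 in those comparisons lie within it.

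Dlk1 had the highest value of the set, 35083, 36649 and 41024 in MDI, 33863, 33614 and 39854 in OA, and 45406, 45824 and 39277 in OA_T0. OA replicate 3 lay above OA_T0 replicate 3, so those groups overlapped, and so did OA and MDI. The log2 fold change in OA_T0 vs OA was 0.28 (SE 0.09, 95% interval 0.09 to 0.47, limma adjusted p = 0.0444). When single libraries were left out (written by group and number, OA 1 for OA replicate 1, with the adjusted p in brackets), the call did not hold without MDI 2 (0.0645), OA 1 (0.170), OA 2 (0.154), OA_T0 1 (0.180) or OA_T0 2 (0.115), and with the 2 libraries low in ribosomal RNA left out (0.0954). In OA vs MDI the log2 difference was -0.07 (adjusted p = 0.707), and in OA_T0 vs MDI it was 0.21 (95% interval 0.02 to 0.40, adjusted p = 0.226).

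Runx1 measured 489, 486 and 446 in MDI, 264, 298 and 285 in OA, and 445, 424 and 462 in OA_T0. The 3 OA libraries were the lowest, with no overlap with either other group, and the OA_T0 libraries overlapped those of MDI. The means were 474 ± 24.1, 282 ± 17.1 and 444 ± 19.0 in that order. Runx1 fell in OA vs MDI by 0.75 on the log2 scale (SE 0.09, limma adjusted p = 9.98e-05), the largest difference of the 10 in that comparison. It rose in OA_T0 vs OA by 0.65 (SE 0.09, adjusted p = 1.59e-04). Between OA_T0 and MDI its log2 difference was -0.09, with a 95% interval from -0.28 to 0.09.

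Runx2 measured 1113, 1194 and 1269 in MDI, 919.9, 932 and 891 in OA, and 1079, 1113 and 971 in OA_T0. The OA libraries were the lowest. Those of OA_T0 lay between the others, but OA_T0 replicate 2 (1113.16) was almost level with MDI replicate 1 (1113.35). Runx2 fell in OA vs MDI by 0.38 on the log2 scale (SE 0.07, limma adjusted p = 0.00495). In OA_T0 vs OA the log2 difference of 0.20 (95% interval 0.05 to 0.36) did not pass (adjusted p = 0.0716), and it passed without OA_T0 replicate 3 (adjusted p = 0.0361). In OA_T0 vs MDI the log2 difference was -0.18 (95% interval -0.33 to -0.02, adjusted p = 0.209).

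Sox9 measured 2405, 2559 and 2622 in MDI, 1979.7, 1931 and 2126 in OA, and 2528, 2632 and 2384 in OA_T0. The OA libraries lay below the other 6. Sox9 fell in OA vs MDI by 0.33 on the log2 scale (SE 0.06, limma adjusted p = 0.00468) and rose in OA_T0 vs OA by 0.32 (SE 0.06, adjusted p = 0.00282). The mean was 2528 ± 112 in MDI and 2514 ± 125 in OA_T0, a log2 difference of -0.01 (95% interval -0.14 to 0.12).

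Gata2 measured 211, 215 and 234 in MDI, 220.3, 235 and 215 in OA, and 187, 214 and 211 in OA_T0. It was not called in any comparison, with log2 differences of 0.02 for OA vs MDI (95% interval -0.21 to 0.25, limma adjusted p = 0.944) and -0.13 for OA_T0 vs OA (-0.36 to 0.10, adjusted p = 0.457). All OA_T0 libraries lay below those of OA, with OA_T0 replicate 2 (214.1) close to OA replicate 3 (214.8).

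Without OA replicate 1 and OA_T0 replicate 3, the libraries low in ribosomal RNA, the log2 differences in OA vs MDI were 0.48 for Pdgfra, -0.70 for Runx1, -0.39 for Runx2 and -0.32 for Sox9, with limma adjusted p between 4.67e-04 and 0.0166. For OA_T0 vs OA they were -0.61 for Pdgfra, 0.57 for Runx1 and 0.35 for Sox9, with adjusted p between 0.00169 and 0.0150. The sizes were thus close to those with all 9 libraries.

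**Figure D2:**
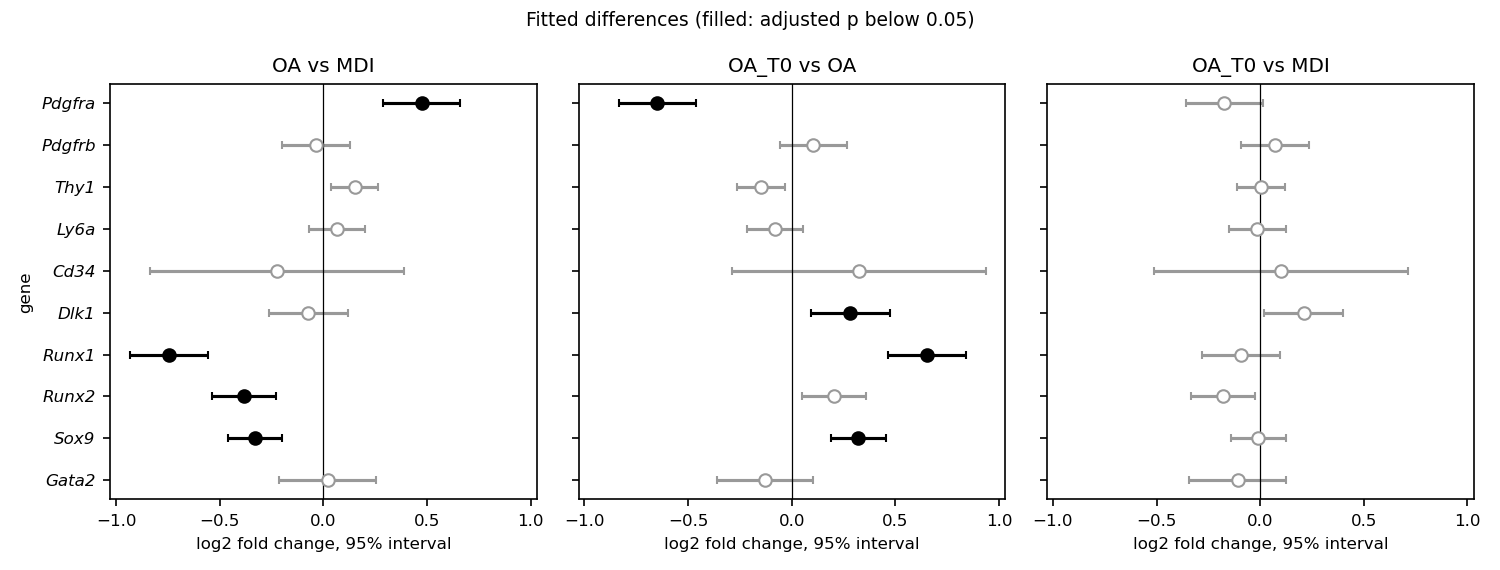
Log2 fold change with its 95% interval from limma on the horizontal axes for each of the 10 genes, in OA vs MDI, OA_T0 vs OA and OA_T0 vs MDI. Filled points passed an adjusted p of 0.05: Pdgfra, Runx1, Runx2 and Sox9 in OA vs MDI and Pdgfra, Runx1, Sox9 and Dlk1 in OA_T0 vs OA, with none in OA_T0 vs MDI.

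Ratios within a library set the genes that moved in opposite directions against each other. Pdgfra to Runx1 was 26.1, 25.5 and 32.9 in MDI, 68.7, 61.0 and 66.3 in OA, and 24.2, 32.4 and 23.6 in OA_T0, with all 3 OA values above the rest. The mean ratio of Pdgfra to Sox9 was 5.25 ± 0.379 in MDI, 9.15 ± 0.258 in OA and 4.69 ± 0.486 in OA_T0. Runx1 to Runx2 was 0.399 ± 0.0445 in MDI, 0.309 ± 0.0190 in OA and 0.423 ± 0.0483 in OA_T0. The OA libraries were again apart, so relative to Runx2, Runx1 was lower in OA than in the other groups. These ratios were not tested.

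**Figure D3:**
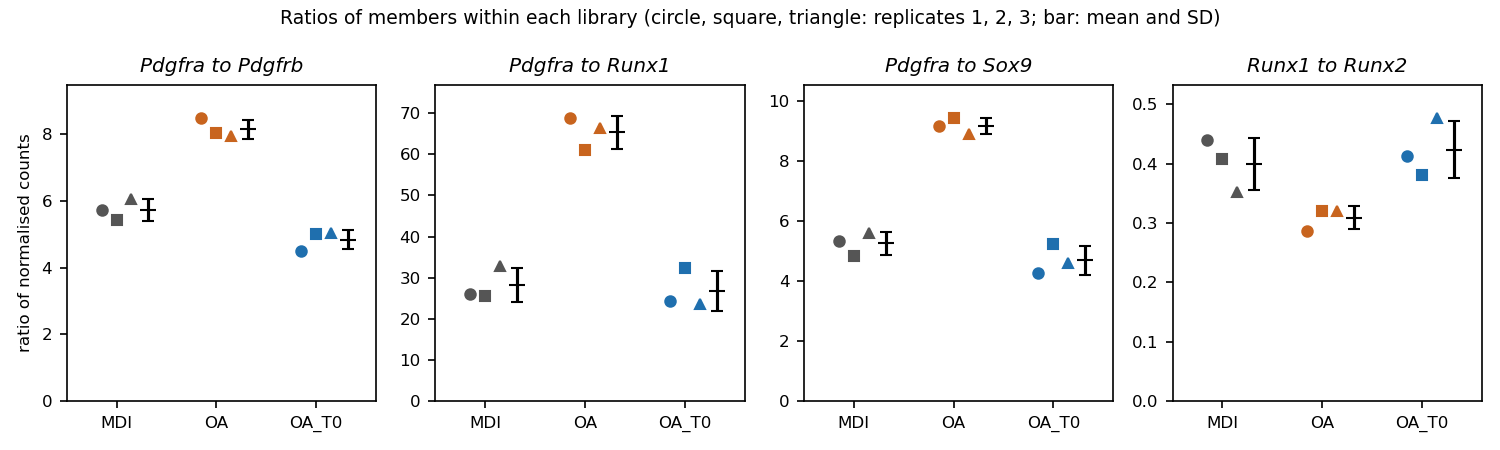
Ratios of normalised counts within each library on the vertical axes, from 0, for Pdgfra to Pdgfrb, Pdgfra to Runx1, Pdgfra to Sox9 and Runx1 to Runx2, by group on the horizontal axes. Points are libraries and bars are means ± SD with n = 3. The OA libraries lie above the rest in the ratios with Pdgfra as numerator and below the rest in Runx1 to Runx2.

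Divided by the exon length of each gene in kilobases, the mean values over the 9 libraries were highest for Dlk1 (6886 per kb), then Ly6a (4311), Thy1 (2814), Pdgfra (1446), Sox9 (569), Pdgfrb (427), Runx2 (119), Gata2 (40.0), Runx1 (33.3) and Cd34 (3.38). Dlk1 ranked between 201 and 252 among the 14686 genes ranked, and Cd34 between 13993 and 14456, so the set spans the range of expression in these cells. Neighbours in that order did not overlap over the libraries, apart from Sox9 with Pdgfrb and Gata2 with Runx1. Sox9 exceeded Pdgfrb in 9 of 9 libraries, and Gata2 exceeded Runx1 in 6 of 9. Pdgfra moved between ranks 739 and 1380.

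Companion lists of other genes of the same pathways and cell types held 174 symbols, of which 151 were found. Leaving out both libraries low in ribosomal RNA ended 24 of the 65 calls in these lists. Those losses are given below for the calls named, and not for other calls of the same genes. The median log2 fold change over all tested genes was 0.01 for OA vs MDI and -0.00232 for OA_T0 vs OA. Among 7 tested PDGF ligands and receptor partners, none was called by limma in OA vs MDI, with 3 higher and 0 lower at an unadjusted p under 0.05. The list's median was 0.01 there and -0.16 in OA_T0 vs OA, where 1 was called higher and 2 lower. Nrp1, a co-receptor, fell from 2939 to 2354 (adjusted p = 0.00404), a call kept without any single library but not without both libraries low in ribosomal RNA (0.0545). Pdgfa, the ligand of PDGFRα, rose from 426 to 561 (adjusted p = 0.0241), and Plat, which activates the C-chain ligand, fell from 1052 to 846 (adjusted p = 0.0340). Pdgfa lost its call without OA 1 (0.0880), OA 2 (0.0572), OA_T0 1 (0.117) or OA_T0 2 (0.0689). Plat lost it without MDI 2 (0.0514), OA 1 (0.0890), OA 2 (0.0795), OA 3 (0.0661), OA_T0 1 (0.149) or OA_T0 3 (0.103), and without both libraries low in ribosomal RNA (0.188). The Pdgfc ligand gene measured 2055 ± 158 in MDI, 1943 ± 6.12 in OA and 2033 ± 48.2 in OA_T0, and Pdgfb was low, between 23.0 and 26.3 on average.

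Around Dlk1, 9 genes of its shedding, of Notch signalling and of its imprinted region were tested, of which 1 was called higher and 1 lower in OA vs MDI, and 3 higher in OA_T0 vs OA, with medians of -0.14 and -0.04. Jag1, a Notch ligand, fell from 2054 in MDI to 1437 in OA (log2 fold change -0.52, limma adjusted p = 7.97e-04) and stood at 2151 in OA_T0 (log2 fold change 0.58 against OA, adjusted p = 1.32e-04). Hes1, a Notch target gene, rose from 456 in OA to 632 in OA_T0 (adjusted p = 0.00186). Both genes kept these calls without any single library. Without both libraries low in ribosomal RNA, Jag1 kept its calls and those of Hes1 (0.0519), Notch1 (0.0586) and Rtl1 (0.146) were lost. Notch1 rose from 905 to 1150 (adjusted p = 0.0249) and lost the call without OA 1 (0.118), OA 2 (0.0758), OA_T0 1 (0.0565) or OA_T0 2 (0.0824). Rtl1, an imprinted neighbour of Dlk1 at a low level, rose from 21.3 to 40.7 in OA vs MDI (adjusted p = 0.0393). It lost the call without any one of the MDI or OA libraries, or OA_T0 replicate 1, with adjusted p between 0.0550 and 0.149. Between OA_T0 and MDI none of the 9 was called by limma, with 1 higher and 2 lower at an unadjusted p under 0.05.

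Of 7 tested partners and relatives of RUNX and GATA factors, none was called in OA vs MDI, with 0 higher and 3 lower at an unadjusted p under 0.05 in limma. The median was -0.20 in that comparison and 0.02 in OA_T0 vs OA, where 1 was called. Cbfb, the subunit that RUNX proteins bind to contact DNA, measured 3317 ± 134 in MDI, 3234 ± 276 in OA and 3179 ± 107 in OA_T0. Zfpm1, a cofactor of GATA proteins, rose in OA_T0 vs OA from 238 to 315 (adjusted p = 0.0387) and lost that call without MDI 1 (0.0518), MDI 2 (0.0583), OA 1 (0.195), OA 2 (0.0652), OA_T0 1 (0.156) or OA_T0 2 (0.0799). Runx1t1, a corepressor gene, fell from 467 in MDI to 350.2 in OA_T0 (adjusted p = 0.0391) and lost that call without MDI 1 (0.178), MDI 2 (0.159), OA 1 (0.0599), OA_T0 1 (0.107) or OA_T0 2 (0.106). Leaving out both libraries low in ribosomal RNA also ended the calls of Zfpm1 (0.144) and Runx1t1 (0.0587). Gata3, which like Gata2 restrains precursors, was not called and averaged 106 in MDI, 75.1 in OA and 102 in OA_T0.

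All 4 tested relatives of Sox9 were called in OA_T0 vs OA, 3 higher and 1 lower, and 2 were called lower in OA vs MDI, with medians of 0.24 and -0.20. Sox11, a factor of mesenchymal and neural progenitors, measured 266 in MDI, 197 in OA and 283 in OA_T0, and the rise of 0.52 on the log2 scale from OA to OA_T0 had a limma adjusted p of 0.00621. Its fall in OA vs MDI (adjusted p = 0.0310) lost the call without any one of MDI replicates 1 to 3 or OA replicates 1 and 2, with adjusted p between 0.0591 and 0.145. Sox12 rose from 1898 in OA to 2278 in OA_T0 (adjusted p = 0.00590). Sox4 measured 4135 in MDI, 3365 in OA and 3895 in OA_T0. Its fall in OA vs MDI (adjusted p = 0.00985) was lost without MDI 2 (0.0522) or OA 1 (0.0614). Its rise in OA_T0 vs OA (adjusted p = 0.0350) was lost without MDI 2 (0.0540), OA 1 (0.177), OA_T0 1 (0.190) or OA_T0 3 (0.0596). Sox5, which partners SOX9 in cartilage, fell from 281 in OA to 209.6 in OA_T0 (adjusted p = 0.0385), a call lost without MDI 1 (0.0508), MDI 2 (0.0526), OA 1 (0.0903), OA 2 (0.174), OA_T0 1 (0.0813) or OA_T0 3 (0.132). Without both libraries low in ribosomal RNA none of these SOX calls held. In OA_T0 vs OA the adjusted p was then 0.0954 for Sox11, 0.0830 for Sox12, 0.236 for Sox4 and 0.213 for Sox5, and in OA vs MDI it was 0.0562 for Sox4 and 0.114 for Sox11.

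A list of other transcription factors set down as restraining adipogenesis gave 1 higher and 4 lower of 14 tested in OA vs MDI. It gave 3 higher and 1 lower in OA_T0 vs OA, with medians of 0.02 in both. A place on this list, that of Ets2 included, does not show that a gene restrains adipogenesis in these cells, which was not tested. Ets2 fell from 1625 in MDI to 1190.5 in OA (limma adjusted p = 0.00217) and rose to 1544 in OA_T0 (adjusted p = 0.00401), with both calls kept without any single library. Ddit3, a stress-induced partner of C/EBP proteins, measured 1414 in MDI, 1050.5 in OA and 1647 in OA_T0, with an adjusted p of 0.0128 for the fall and 3.48e-04 for the rise. The fall was lost without MDI 1 (0.0598) or MDI 2 (0.0602). Klf2, a zinc finger repressor of Pparg, fell from 184 to 115 in OA (adjusted p = 0.0105), a call lost without MDI 2 (0.0595). It rose to 167 in OA_T0 (adjusted p = 0.0184), a call lost without OA 1 (0.0633), OA 2 (0.0687) or OA_T0 1 (0.0780), and without both libraries low in ribosomal RNA (0.108). Nr2f2 fell from 3061 to 2556 in OA vs MDI (adjusted p = 0.0253), lost without MDI 1 (0.0715), MDI 2 (0.144), OA 1 (0.0586) or OA 3 (0.0861). Prrx1, a mesenchymal homeobox factor, fell in OA_T0 vs OA from 11296 to 8028 (adjusted p = 3.83e-04), the opposite direction to Ets2, Ddit3 and Klf2. In OA_T0 vs MDI limma called none of the PDGF, SOX or restraining genes of these lists, with 1 higher and 0 lower, 1 higher and 0 lower, and 1 higher and 1 lower at an unadjusted p under 0.05.

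**Figure D4:**
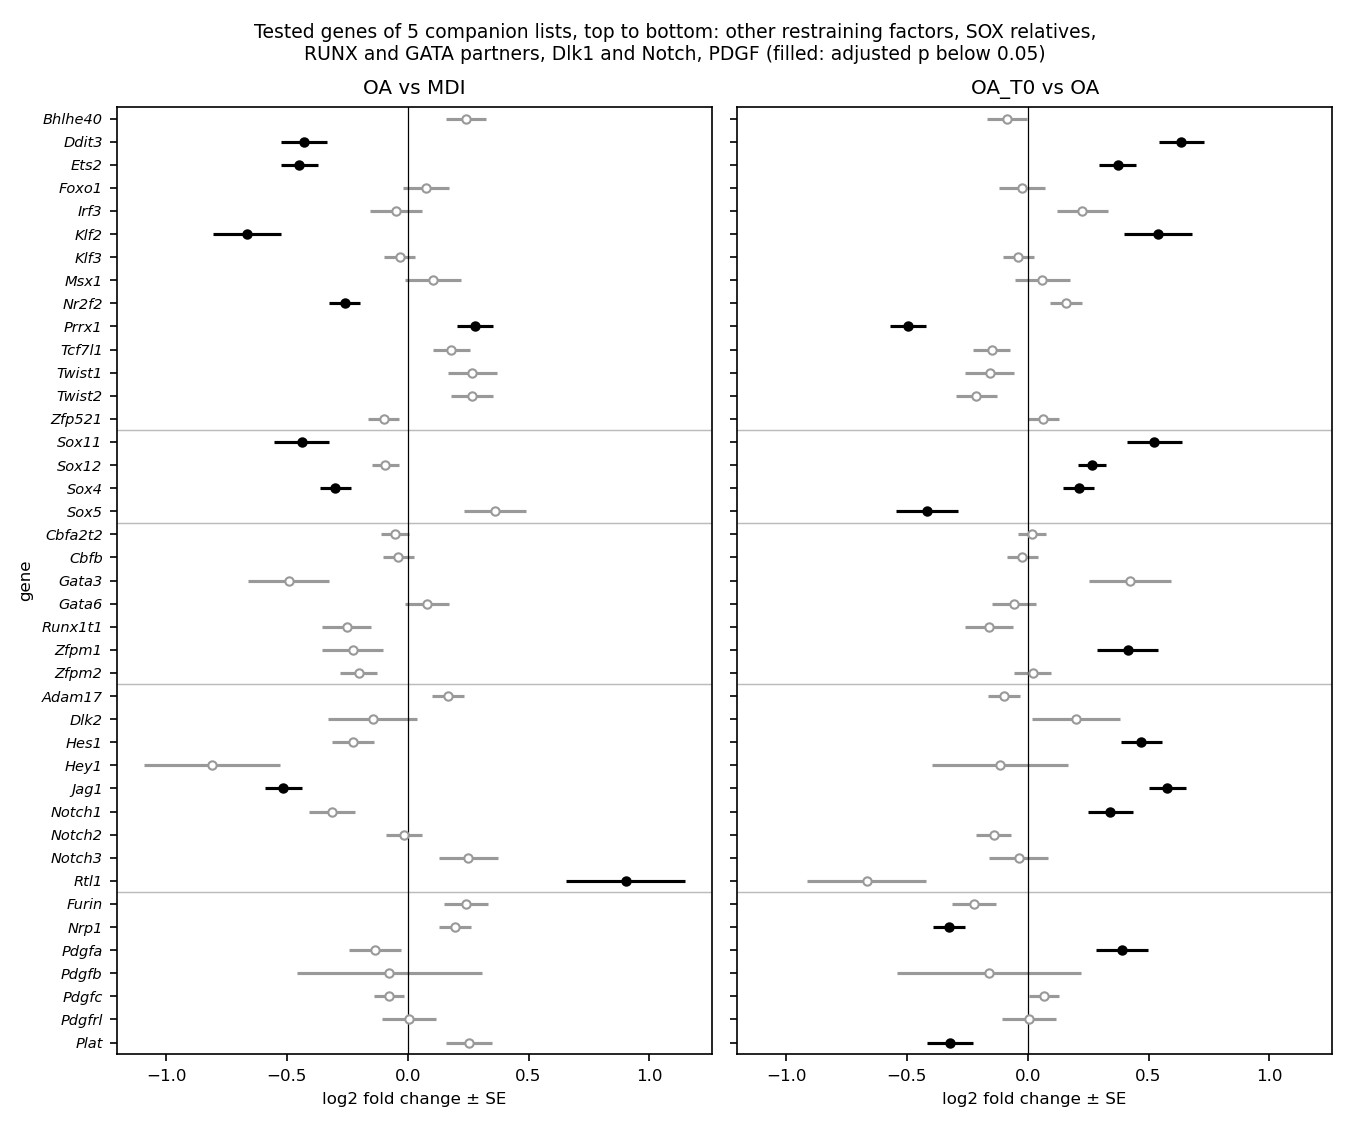
Log2 fold change ± SE from limma on the horizontal axes for the tested genes of 5 companion lists, in OA vs MDI on the left and OA_T0 vs OA on the right. Filled points passed an adjusted p of 0.05; Jag1, Sox4, Sox11, Ets2, Ddit3 and Klf2 are filled on the left side of 0 in OA vs MDI and on the right side in OA_T0 vs OA.

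The label of precursor cells was set against other stromal markers, of which 20 were tested, with a median of 0.01 for OA vs MDI and -0.07 for OA_T0 vs OA. The summed level of 24 such genes was 318411 to 341933 in MDI, 332845 to 358290 in OA and 295454 to 336593 in OA_T0, led by the collagen gene Col1a2, while Dpp4 and Icam1 stood at or under the floor in all 9 libraries. In OA vs MDI, Fbn1, a microfibril gene, was the one stromal marker called, and it fell from 18624 to 13306 (limma adjusted p = 2.51e-04). Of the 20, 3 were called higher and 2 lower in OA_T0 vs OA, among them F3 (3178 to 4342, adjusted p = 4.57e-04), Anxa3 (3911 to 5731, adjusted p = 0.00149), Vcam1 (7524 to 5975, adjusted p = 0.00189) and Col3a1 (77738 to 58864, adjusted p = 0.00325). In OA_T0 vs MDI, 2 were called higher and 1 lower: F3 (adjusted p = 0.00468), Anxa3 (adjusted p = 0.0354) and Col3a1 (adjusted p = 0.0313). The last 2 lost the call in turn, Anxa3 without MDI 1 (0.154), MDI 2 (0.0563) or OA_T0 1 (0.199). Col3a1 lost it without MDI 1 (0.0913), MDI 2 (0.0640), OA 1 (0.0519), OA_T0 1 (0.179), OA_T0 2 (0.0550) or OA_T0 3 (0.0827), and without both libraries low in ribosomal RNA (0.116). Of 3 tested LY6 family genes none was called in any comparison by limma, with medians of 0.14 for OA vs MDI and -0.05 for OA_T0 vs OA. At an unadjusted p under 0.05 there were 2 higher and 0 lower in OA vs MDI, 0 in either direction in OA_T0 vs OA, and 1 higher and 0 lower in OA_T0 vs MDI.

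A list of precursor factors set down as favouring adipogenesis divided in both directions. Of 10 tested, 3 were called higher and 2 lower for OA vs MDI and 4 higher and 5 lower for OA_T0 vs OA, with medians of -0.02 and 0.05. Ccn5 was counted on this list, although its product is known to hold ZFP423 in the cytosol and to restrain commitment. Of the other 9 genes, a count added after the data were seen, 2 were called higher and 2 lower for OA vs MDI and 4 higher and 4 lower for OA_T0 vs OA, with medians of -0.15 and 0.35. Ccn5 rose from 1242 in MDI to 1934 in OA (limma adjusted p = 7.71e-04) and fell to 1218 in OA_T0 (adjusted p = 2.39e-04). Ebf2 rose from 136 to 251 in OA vs MDI (adjusted p = 8.44e-04), and Klf4 fell from 1078 to 793 (adjusted p = 0.00375). Egr2 fell from 232 to 150.3 (adjusted p = 0.0215), lost without MDI 2 (0.140) or OA 3 (0.0831). Ebf1 rose in OA_T0 vs OA from 2653 to 3383 (adjusted p = 8.55e-04), Cebpd from 1893 to 2881 (adjusted p = 0.00242) and Cebpb from 3328 to 4675 (adjusted p = 0.00461). Cebpb and Cebpd are the C/EBP genes that SOX9 is known to repress, and here they rose in the comparison in which Sox9 rose. The part of SOX9 in their changes was not tested. None of the 10 was called in OA_T0 vs MDI by limma, with 4 higher and 0 lower at an unadjusted p under 0.05.

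Markers of adipocytes differed between the same groups, with medians over 6 tested of 1.15 (OA vs MDI) and -0.83 (OA_T0 vs OA). The summed level of 12 adipocyte markers ran from 6990.1 to 7700.3 in MDI, 12951 to 14064 in OA and 10697 to 11568 in OA_T0, led by Lpl. Among defining genes, Cfd and Slc2a4 stood at or under the floor in all 9 libraries. Adipoq, Retn, Cidec and Plin1 were too low to be tested, with means over the 9 libraries between 2.17 and 3.05. Pparg and Cebpa were not called in OA vs MDI. Of the 6, 4 were called higher in OA vs MDI, led by Fabp4 (374 to 2024), Lpl (5424 to 9358), Cd36 (20.3 to 321) and Lipe (122 to 347). Cd36, Fabp4 and Lipe fell in OA_T0 vs OA and Pparg rose from 964 to 1185 (limma adjusted p = 0.00558), a Pparg call lost without both libraries low in ribosomal RNA (0.0911). In OA_T0 vs MDI, Lpl (adjusted p = 3.18e-06), Fabp4 (adjusted p = 0.00412) and Pparg (adjusted p = 0.0127) were higher. The Pparg call in OA_T0 vs MDI was lost without MDI 1 (0.0525), MDI 2 (0.0718) or OA_T0 1 (0.103). In bulk RNA, fewer precursor cells and less RNA of a gene per cell cannot be told apart. The part of the adipocyte markers in the changes of Pdgfra, Runx1, Runx2 and Sox9 was not tested.

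Acta2, a smooth muscle actin of mural cells and activated fibroblasts, fell from 3693 ± 605 in MDI to 1939 ± 167 in OA (limma adjusted p = 3.26e-05) and rose to 4686 ± 109 in OA_T0 (adjusted p = 5.55e-07). It led the 8 mural markers, whose sum was 3405 to 4560.5 in MDI, 2178 to 2524 in OA and 5148 to 5410.1 in OA_T0, with Higd1b at or under the floor. Of 4 tested, 1 was called lower in OA vs MDI and 2 higher in OA_T0 vs OA, the other being Tagln (223 to 369, adjusted p = 0.00145). At an unadjusted p under 0.05 in limma there were 1 higher and 1 lower in OA vs MDI, and 2 higher and 1 lower in OA_T0 vs OA. Des, which was not called, went the other way, at 50.4, 65.3 and 64.2 in MDI, 92.8, 84.5 and 75.3 in OA, and 60.0, 52.3 and 58.5 in OA_T0. None of the 4 was called by limma in OA_T0 vs MDI, with 2 higher and 0 lower at an unadjusted p under 0.05. The median of the 4 was -0.24 for OA vs MDI and 0.41 for OA_T0 vs OA. Pdgfrb, which mural cells share, was called in no comparison. The part of these genes in the changes of the set was not tested.

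RUNX2 and SOX9 also serve bone and cartilage. Of 10 osteoblast markers, Sp7, Bglap, Bglap2 and Ibsp were at or under the floor in all 9 libraries, and the sum, mostly Spp1, was 8440.0 to 10507 in MDI, 11370 to 14150 in OA and 7787 to 8768 in OA_T0. Of 4 tested, with medians of 0.23 for OA vs MDI and -0.16 for OA_T0 vs OA, only Spp1 was called. It rose in OA vs MDI (limma adjusted p = 0.0135) and fell in OA_T0 vs OA (adjusted p = 2.76e-04), against the direction of the values of Runx2. Limma called 0 of the 4 in OA_T0 vs MDI, with 0 higher and 1 lower at an unadjusted p under 0.05. The rise was lost without MDI 1 (0.0596) or OA 1 (0.0723), and without both libraries low in ribosomal RNA (0.0512). Of 8 cartilage markers, Acan, Col2a1, Matn1, Matn3 and Hapln1 were at or under the floor. The 1 tested, Col11a1, rose from 748 in OA to 1048 in OA_T0 (adjusted p = 0.0126), lost without OA 1 (0.0738) or OA_T0 1 (0.0724). It was not called in the other comparisons, at an unadjusted p under 0.05 higher in OA_T0 vs MDI. The sum of the 8 ranged from 774 to 930.2 in MDI, 626 to 870.1 in OA and 891 to 1159 in OA_T0. Sums of 7 endothelial markers lay between 17.6 and 25.7, and those of 9 blood cell markers between 25.5 and 72.4, with Kdr, Tie1 and Erg and with Ptprc, Adgre1, Itgam, Cd3e, Kit, Tal1 and Spi1 at or under the floor. The blood cell sum was 50.7 to 72.4 in OA_T0, mostly Cd68 and Lyz2, above the 25.5 to 46.2 of the other groups. Of 2 tested blood cell markers none was called by limma, with 0, 1 and 1 higher and 0 lower at an unadjusted p under 0.05 in OA vs MDI, OA_T0 vs OA and OA_T0 vs MDI. Myog and Ckm, of muscle, were at 0 in all libraries.

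Candidates were the 10921 other tested genes with a mean of at least 50, with unnamed gene models left out. Of these, those whose log2 values followed Pdgfra most closely over the 9 libraries were Maf (Pearson's r = 0.995), Ccdc80 (0.993) and Rhou (0.992). Maf, a basic leucine zipper factor, measured 1571 ± 207 in MDI, 2289 ± 5.08 in OA and 1378 ± 217 in OA_T0. Ccdc80, a secreted protein of adipose tissue, averaged 867, 1309 and 730.5 in that order. Nearest to Runx1 were Cdkn2aip (0.979), Senp2 (0.978), a SUMO protease with means of 1992, 1612 and 1989 in the MDI, OA and OA_T0 groups, and Rin1 (0.970). Nearest to Sox9 were Ercc8 (0.978), Myh9 (0.972), a nonmuscle myosin averaging 20716, 17129 and 20373, and Ctdp1 (0.970). Nearest to Runx2 were Pdlim5 (0.969), Arl15 (0.948) and Mtss2 (0.946), and nearest to Dlk1 were Mcrip1 (0.991), Ipo4 (0.990) and Bcat2 (0.979). These correlations describe 9 libraries that fall into 3 groups and share their scaling, and the closest of many candidates were taken, so they carry no test.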

How the data were processed

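The deposited signal is 1 normalised count per gene and library, taken here as a count divided by 1 factor per library. The counts were not all whole, since Icam1 stood at 5.44e-09 in OA replicate 2. Per the submitters' processing notes, the build was mm9 and the tools were TopHat, HTSeq, DESeq2 and CASAVA 1.8.2, whose roles and order are not given. Per the labels' protocols, oligo-dT selection preceded dUTP libraries that keep the strand, and whether counting used strand is not given in the sources used here. Low values sat near multiples of 1 step per library, the worth of 1 fragment, which gave the estimated depth. Between 5 and 50 steps, 63.1% to 68.9% of values were whole within 0.05 of a step, so whole reads were not recovered and tests for counts were not run. Floors cover counting error only.

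Differences were fitted with limma 3.58.1 in R 4.3.3 on log2(value + 1), with eBayes trend and all 9 libraries sharing 1 spread per gene, on genes with a mean of at least 10, in 3 comparisons. The test was two-sided and adjusted within each comparison. Fold changes on this scale understate those of low genes. The procedure was tested on simulated data. Exon lengths came from GENCODE M21 (28037 of 28965 symbols) and promoters from RefSeq. All 10 genes are given in every comparison, with up to 4 passing members of each companion list by smallest adjusted p and the 3 most similar genes of each called member. The members and lists were chosen with earlier results of these data known. Alternatives were other pseudocounts, filters, scalings, fits and left-out libraries.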

Additional observations from a re-analysis of the deposited data

How the results depend on the processing

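Over 19 alternatives, 7 of the 8 calls among the 10 genes were kept in each, and 0 of the 8 changed sign. The limma adjusted p in OA vs MDI ranged from 5.62e-04 to 0.0440 for Pdgfra, 3.6e-05 to 0.00175 for Runx1, 0.00206 to 0.0332 for Runx2 and 0.00110 to 0.0345 for Sox9. In OA_T0 vs OA it ranged from 1.0e-05 to 0.00540 for Pdgfra, 7.6e-05 to 0.00491 for Runx1, 0.00101 to 0.0202 for Sox9 and 0.0145 to 0.180 for Dlk1. Dlk1 in OA_T0 vs OA was not called without the filter (0.140) or with replicate number as a block (0.0684). Of 22 differences not called, 1 passed in an alternative, Runx2 in OA_T0 vs OA without OA_T0 replicate 3. Cd34 has no value with the filter at 50. Of 65 calls in the companion lists, 31 were kept in every alternative 26 were lost without some single library and 24 without both libraries low in ribosomal RNA; the cause was not tested.

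The count of all genes called in OA vs MDI was 233 higher and 234 lower without the filter, where more genes are tested. In OA_T0 vs OA it was then 850 higher and 620 lower, and in OA_T0 vs MDI 72 higher and 38 lower. Robust variances gave 178 higher and 132 lower in OA_T0 vs MDI. Leaving out the 2 libraries low in ribosomal RNA gave 524 higher and 402 lower in OA_T0 vs OA. Leaving out 1 library gave 211 to 658 higher and 155 to 639 lower for OA vs MDI. The ranges were 580 to 1443 higher and 474 to 1239 lower for OA_T0 vs OA, and 66 to 284 and 44 to 247 for OA_T0 vs MDI.

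With replicate number as a block, OA vs MDI had 433 genes higher and 417 lower, OA_T0 vs OA 1095 and 916, and OA_T0 vs MDI 156 and 183. Among the 10 genes, the block left 1 higher and 3 lower, 2 higher and 1 lower, and 0 and 0. Deviations from group means correlated between -0.256 and 0.259 for the 9 pairs of libraries with the same number, of which 1 exceeded 0.1. For the 18 pairs with different numbers they lay between -0.23 and 0.25, and 6 exceeded 0.1. Whether the numbers pair the samples is not stated in the sources used here. Deviations within a group of 3 cancel out, so these correlations cannot decide it. Of the 10 genes, Cd34 lay nearest the floor and had the widest intervals; how much of their width comes from depth was not tested.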
